A study of Homo sapiens with 40 samples.

Results

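The MAP kinase cascade genes are the rows of the 5 deposited exon tables whose Ensembl identifier maps to a gene symbol beginning with MAPK, MAP2K, MAP3K or MAP4K. This rule found 66 exon events in 28 genes, out of 16378 events under 6976 gene identifiers. An event is a skippable exon together with its flanking exons, so 1 exon can appear as several events. Of the 28 genes, 22 are numbered kinases of the cascade: 5 MAPK genes with 17 events, 6 MAP2K genes with 12 events, 7 MAP3K genes with 12 events and 4 MAP4K genes with 8 events. The remaining 6 genes, with 17 events, share the prefix and are not numbered kinases of the cascade. They are MAPKAP1, a subunit of the mTORC2 complex also called SIN1, the MAPK-activated kinase gene MAPKAPK5 and its antisense gene MAPKAPK5-AS1, the scaffold gene MAPK8IP3, the gene MAPK1IP1L, and MAP4K3-DT, a transcript divergent from MAP4K3. They are kept in the counts and named as such, because the symbol alone does not make them cascade kinases.

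A MAP kinase cascade is a relay of protein kinases in which a MAP3K phosphorylates a MAP2K, which in turn phosphorylates a MAPK on its activation loop. MAP4Ks act above the MAP3Ks. The ERK branch carries mostly growth factor signals, and the JNK and p38 branches carry stress and cytokine signals. Many of these genes are alternatively spliced, and a skipped exon can alter a docking region, a regulatory stretch or the reading frame.

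The cells were HEK293 Flp-in T-REx, a human embryonic kidney line with a site for integrating an inducible transgene. Every group expressed an α-amanitin-resistant Rpb1, the large subunit of RNA polymerase II, from a doxycycline-induced transgene. Each group carried either the wild type (WT) subunit or 1 substitution, R749H, H1106Y or E1126G. All groups had 12 to 16 h of doxycycline and then 42 h of α-amanitin, which blocks the cells' own polymerase. R749H and H1106Y are known as slow forms of the polymerase and E1126G as a fast form, and the comparisons ask how splicing responds to the speed of elongation. PolyA+ RNA was sequenced for WT, R749H and E1126G, with 2 libraries per genotype. RASL-seq, in which pairs of probes are ligated across chosen exon junctions and counted, covered all 4 genotypes, with 3 libraries per genotype. The sources used here do not say whether a transgenic line was 1 clone.

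The deposited tables compare a mutant with WT and hold no value per library, so each event has 1 WT level and 1 level per mutant and no standard deviation. Inclusion is the share of inclusion reads among inclusion plus exclusion reads, in percent. A log2 change is the log2 of the mutant ratio of inclusion to exclusion over the WT ratio, as printed in the authors' deposited table. An event is said to change, rise or fall when the deposited p-value, adjusted by the Benjamini-Hochberg method over its whole table, is under 0.05. The error given with a log2 change is the standard error (SE) that the deposited p-value implies. Read depth is unknown, and the tables hold no expression levels with which the cell type or the transgene could be checked. In bulk RNA a shift in every cell and a shift in some of the cells cannot be told apart, and neither can altered splicing and altered stability of 1 isoform. Comparisons within an assay share their WT libraries.

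Of the 66 events, 19 in 11 genes changed in at least 1 of the 5 comparisons, and 9 of these changed in 2 or more. RNA-seq held 64 events and 4 of them changed there. RASL-seq held 20 events and 15 of them changed there. The share of all events that changed in at least 1 of several comparisons was not counted, so these counts have no background beside them. Shares over all events are given for each comparison below. These counts also hold some RASL-seq measurements more than once, as described below. Both assays measured 18 events, and none of these changed in both. Of the 4 events that changed in RNA-seq, those of MAP2K1, MAP3K4 and MAPK12 are not in the RASL-seq tables. That of MAP2K7 is listed there for R749H only. Of the 15 events that changed in RASL-seq, the 33 nt exon of MAP2K4 and the 116 nt exon of MAP3K7 are not in the RNA-seq tables. The others were measured by RNA-seq with R749H, E1126G or both, and none of them changed there. RNA-seq did not include H1106Y. The other 47 events never passed the threshold, and 17 genes had no changing event. The 11 genes with a change were MAPK3, MAPK12, MAP2K1, MAP2K3, MAP2K4, MAP2K7, MAP3K4, MAP3K7, MAP3K8, MAP4K4 and MAPKAP1.

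In RNA-seq a smaller share of the members changed than of all events, a contrast that was not tested. With R749H, 3 of 53 member events changed, or 5.66%, against 15.1% of all 14358 events. Of these, 1 rose, against 7.07% of all events, and 2 fell, against 8.04% of all events. With E1126G, 2 of 61 changed, or 3.28%, against 6.48% of all 14650 events. None rose, against 2.20% of all events, and 2 fell, against 4.27%. At an unadjusted deposited p under 0.05 there were 8 member events with R749H and 7 with E1126G. In the authors' deposited tables the median log2 change of the members was −0.17 with R749H and −0.10 with E1126G, beside −0.00479 and −0.08 over all events.

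In RASL-seq, whose probes cover a chosen panel, a larger part of all events changed and the members' shares lay on either side of it. With R749H, 6 of 18 member events changed, or 33.3%, against 44.1% of all 2248 events. All 6 rose, against 24.0% of all events, and none fell, against 20.1%. With H1106Y, 10 of 14 changed, or 71.4%, against 61.9% of all 2070 events, with 6 higher against 23.7% and 4 lower against 38.2%. With E1126G, 8 of 18 changed, or 44.4%, against 47.5% of all 2312 events, with 3 higher against 13.9% and 5 lower against 33.6%. In the authors' deposited tables the members' median log2 change was 0.66 with R749H, 0.66 with H1106Y and 0.08 with E1126G, beside 0.05, −0.33 and −0.37 over all events.

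The RASL-seq counts hold some measurements more than once. The 149 nt and 132 nt forms of a MAPK3 exon carried identical RASL-seq values, and so did forms of 177 nt and 30 nt in MAPK12, of 328 nt and 244 nt in MAPKAP1 and of 231 nt and 224 nt in MAP3K8. Each pair shares the 5′ end of the exon and differs only at its 3′ end, by 17, 147, 84 and 7 nt respectively. RASL-seq did not tell such forms apart, and each pair is 1 measurement. Counted that way, 4 of 15 measurements changed with R749H, 8 of 12 with H1106Y and 6 of 14 with E1126G.

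**Figure D1:**
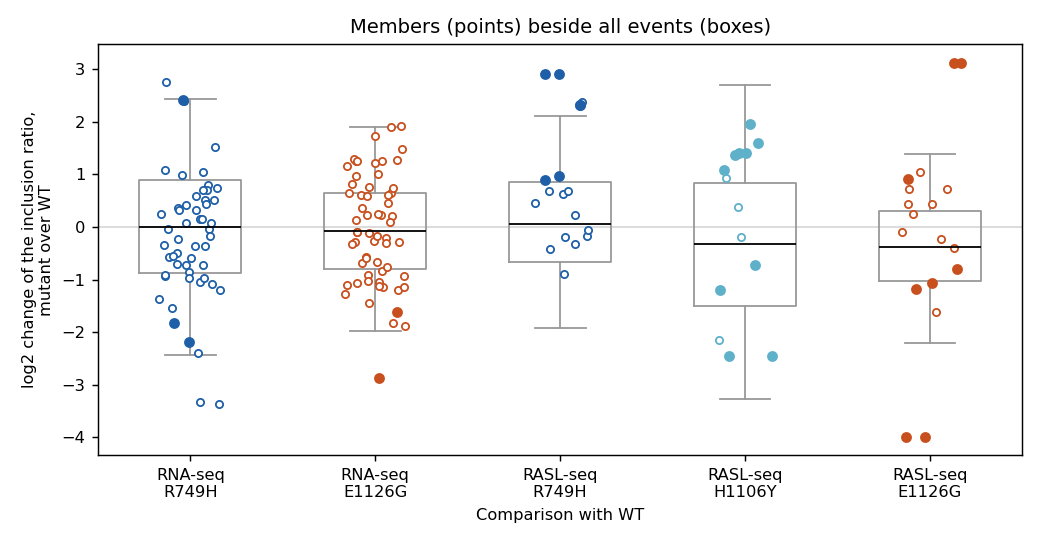
Log2 change of the inclusion ratio, mutant over WT, for every member event (points, 1 per row of the table, filled where the adjusted p is under 0.05) beside all events of the same table (boxes from the first to the third quartile with the median, whiskers from the 5th to the 95th percentile). The filled points are few in the 2 RNA-seq columns, 3 and 2, and number 6, 10 and 8 in the RASL-seq columns.

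At the top of the cascade, MAP4K4, a kinase that acts on the JNK branch, changed in 1 of its events. Its 192 nt exon (chromosome 2, 102487956 to 102488147) was included at 83.4% in WT by RASL-seq, 91.4% with H1106Y, 85.4% with R749H and 81.2% with E1126G. The rise with H1106Y was 1.08 in log2 in the authors' deposited table (implied SE 0.16, adjusted p = 9.2e-11). The R749H and E1126G levels did not pass the threshold (adjusted p = 0.25 and 0.067). By RNA-seq the same exon stood at 73.0% in WT, 77.7% with R749H and 68.2% with E1126G, with neither change past the threshold (adjusted p = 0.67 and 0.78). Both assays put R749H above WT and E1126G below it, and the RASL-seq fall with E1126G, −0.22 in log2 in the authors' deposited table (implied SE 0.10), had an unadjusted p of 0.033.

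MAP4K1, a kinase best known from blood cells, gave the largest shift in points of this tier. Its 56 nt exon (chromosome 19, 39083922 to 39083977) was included at 36.7% in WT by RASL-seq, 75.0% with R749H and 11.5% with H1106Y. Neither value passed the threshold against WT, with log2 changes in the authors' deposited tables of 2.37 (implied SE 1.26, adjusted p = 0.12) and −2.15 (implied SE 1.04, adjusted p = 0.062). The 2 slow mutants lay on opposite sides of WT, and their difference from each other is given with the other mutant differences. MAP4K3, which acts in amino acid signalling to mTOR, had a 63 nt exon at 60.2% in WT, 51.7% with R749H and 41.4% with E1126G by RNA-seq, with neither change past the threshold (adjusted p = 0.69 and 0.38). MAP4K5 stayed between 97.6% and 98.8% in the 3 RNA-seq genotypes.

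Among the MAP3Ks, 3 of 7 genes had a changing event: MAP3K4, MAP3K7 and MAP3K8. MAP3K4 (MEKK4) feeds the p38 and JNK branches. Its 150 nt exon (chromosome 6, 161519310 to 161519459), a length of 50 codons, went from 27.3% in WT to 66.7% with R749H by RNA-seq. This was the only member event that rose in RNA-seq, with a log2 change in the authors' deposited table of 2.42 (implied SE 0.53, adjusted p = 1.3e-04). With E1126G the exon stood at 47.8%, between the other 2 genotypes, and did not pass the threshold (log2 1.29 in the authors' deposited table, implied SE 0.60, adjusted p = 0.23). The exon is not in the RASL-seq tables.

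MAP3K7 (TAK1), the kinase that links cytokine receptors to JNK, p38 and NF-κB, had a rarely used 81 nt exon (chromosome 6, 91254271 to 91254351) that separated the mutants by RASL-seq. It was included at 8.16% in WT, 7.84% with R749H, 21.3% with H1106Y and 4.89% with E1126G. The H1106Y level rose by 1.60 in log2 in the authors' deposited table (implied SE 0.19, adjusted p = 2.8e-16). The E1126G level fell by 0.79 in log2 in the authors' deposited table (implied SE 0.19, adjusted p = 7.9e-05), while the R749H level did not pass the threshold (adjusted p = 0.84). RNA-seq gave 12.4% in WT, 16.9% with R749H and 7.38% with E1126G, neither past the threshold (adjusted p = 0.64 and 0.61). A 116 nt exon of MAP3K7 was near full inclusion, at 99.0% in WT, and fell to 98.0% with E1126G (adjusted p = 0.024). With R749H and H1106Y it stood at 98.8% and 99.3% (adjusted p = 0.63 and 0.60).

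MAP3K8 (TPL2, also called COT), which activates MAP2K1 and MAP2K2 below inflammatory receptors, gave the largest change in points of any member. An exon of 231 nt or 224 nt (chromosome 10, 30726105 to 30726335 or 30726328) fell from 89.3% in WT to 34.5% with E1126G by RASL-seq, a log2 change of −3.98 in the authors' deposited table (implied SE 0.85, adjusted p = 1.1e-05). It is not listed for R749H or H1106Y in RASL-seq. RNA-seq also placed every mutant value below WT without passing the threshold. The 231 nt form stood at 72.1% in WT, 20.0% with R749H and 42.1% with E1126G (adjusted p = 0.14 and 0.31), and the 224 nt form at 50.0% in WT and 21.4% with E1126G (adjusted p = 0.48). The implied errors of these RNA-seq changes were wide, from 0.95 to 1.57 in log2.

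The other MAP3K genes, MAP3K3, MAP3K6, MAP3K10 and MAP3K21, had no changing event. A 93 nt exon of MAP3K3, a kinase above MAP2K5, stood at 94.2% in WT by RASL-seq, 89.7% with R749H, 93.5% with H1106Y and 95.1% with E1126G. None of these 3 passed the threshold (adjusted p = 0.15, 0.83 and 0.76). By RNA-seq the exon stood at 21.3% in WT, 17.3% with R749H and 39.5% with E1126G, neither past the threshold (adjusted p = 0.81 and 0.39).

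**Figure D2:**
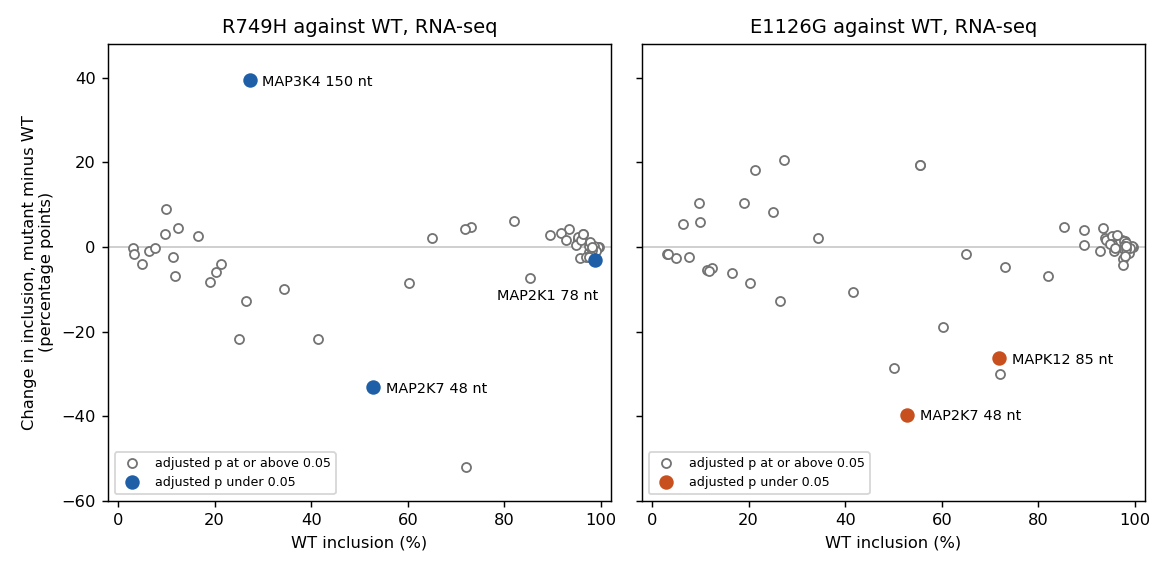
Change in inclusion by RNA-seq in percentage points, mutant minus WT, against WT inclusion in percent, for the member events with R749H (left) and E1126G (right). Filled points passed the adjusted threshold of 0.05: MAP3K4, MAP2K7 and MAP2K1 with R749H, and MAP2K7 and MAPK12 with E1126G.

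Among the MAP2Ks, 4 of 6 genes had a changing event. MAP2K7, which activates the JNKs, had a 48 nt exon (chromosome 19, 7970693 to 7970740), a length of 16 codons, that was skipped more with both a slow and the fast polymerase. By RNA-seq its inclusion was 52.8% in WT, 19.7% with R749H and 13.2% with E1126G. The log2 changes in the authors' deposited tables were −2.19 with R749H (implied SE 0.59, adjusted p = 0.0031) and −2.88 with E1126G (implied SE 0.68, adjusted p = 0.0011). It was the only member event that changed with both mutants in RNA-seq, and the 2 comparisons share the WT libraries. By RASL-seq the exon stood at 23.2% in WT and 21.1% with R749H, which did not pass the threshold (log2 −0.18 in the authors' deposited table, implied SE 0.96, adjusted p = 0.91), and the other mutants are not listed.

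MAP2K4, the other JNK activator, had a seldom used 33 nt exon (chromosome 17, 11935583 to 11935615). By RASL-seq its inclusion was 4.42% in WT, 5.92% with R749H, 1.98% with H1106Y and 2.00% with E1126G. It fell with H1106Y (log2 −1.19 in the authors' deposited table, implied SE 0.50, adjusted p = 0.028) and with E1126G (log2 −1.18 in the authors' deposited table, implied SE 0.42, adjusted p = 0.013). The R749H level was above WT and did not pass the threshold (adjusted p = 0.33).

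MAP2K3, an activator of the p38 kinases, had a 125 nt exon (chromosome 17, 21199398 to 21199522) that rose with all 3 mutants by RASL-seq, from a very low level. Inclusion was 0.916% in WT, 1.78% with R749H, 3.44% with H1106Y and 1.72% with E1126G. The log2 changes in the authors' deposited tables were 0.97 (implied SE 0.22, adjusted p = 4.6e-05), 1.95 (implied SE 0.18, adjusted p = 1.8e-25) and 0.92 (implied SE 0.16, adjusted p = 2.6e-08). This was the only member event that changed in 3 comparisons, which share their WT libraries, and no mutant moved it by 3 percentage points. RNA-seq, with the same flanking exons, gave 9.92% in WT, 18.9% with R749H and 15.8% with E1126G, neither past the threshold (adjusted p = 0.37 and 0.66). The low levels belong to these flanking exons. With either of 2 nearer upstream flanks, the same exon stood at 55.6% in WT and 75.0% with E1126G by RNA-seq (adjusted p = 0.69). Those 2 events carried identical values and are listed in no other comparison.

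MAP2K1 (MEK1), an activator of the ERKs, changed in an exon that is nearly always included. Its 78 nt exon (chromosome 15, 66735618 to 66735695) was at 98.7% in WT, 95.6% with R749H and 98.4% with E1126G by RNA-seq. The fall with R749H was −1.83 in log2 in the authors' deposited table (implied SE 0.55, adjusted p = 0.0088), and E1126G did not pass the threshold (adjusted p = 0.90). MAP2K2 (MEK2), the other ERK activator, had an exon of 211 nt that stayed between 99.4% and 99.6% in all 3 genotypes. MAP2K5, which activates ERK5, had a 30 nt exon at 95.2% in WT, 96.9% with R749H and 97.6% with E1126G by RASL-seq, neither past the threshold (adjusted p = 0.65 and 0.36).

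Of the 5 MAPK genes, MAPK3 and MAPK12 had changing events, and MAPK8, MAPK9 and MAPK11 had none. MAPK3 (ERK1) is a terminal kinase of the growth factor branch. An exon of 149 nt or 132 nt (chromosome 16, 30128458 or 30128475 to 30128606) was included at 34.2% in WT by RASL-seq, 79.5% with R749H, 58.0% with H1106Y and 41.2% with E1126G. The exon rose with both slow polymerases, by log2 2.90 with R749H (implied SE 0.70, adjusted p = 1.5e-04) and 1.41 with H1106Y (implied SE 0.62, adjusted p = 0.038) in the authors' deposited tables. The fast polymerase did not pass the threshold (log2 0.43 in the authors' deposited table, implied SE 0.60, adjusted p = 0.59).

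RNA-seq placed the same MAPK3 exon near full inclusion. The 149 nt form stood at 95.2% in WT, 97.6% with R749H and 95.9% with E1126G, and the 132 nt form at 97.6%, 98.8% and 98.0%. None of these changes passed the threshold (adjusted p = 0.20 and 0.89 for the 149 nt form, 0.23 and 0.89 for the 132 nt form). The WT levels of the 2 assays thus lay 61.1 and 63.4 points apart, and which of them is nearer the cells' RNA was not tested.

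MAPK12 (p38γ), a p38 kinase best known from muscle, had changing events in both assays, in exons that the assays did not cover alike. An 85 nt exon (chromosome 22, 50686121 to 50686205) fell by RNA-seq from 71.9% in WT to 45.6% with E1126G, a log2 change of −1.61 in the authors' deposited table (implied SE 0.36, adjusted p = 5.1e-04). With R749H it stood at 76.2% and did not pass the threshold (adjusted p = 0.77). The 85 nt exon is not in the RASL-seq tables. An exon of 177 nt or 30 nt (chromosome 22, 50695217 or 50695364 to 50695393) rose by RASL-seq from 97.7% in WT to 99.5% with R749H and 99.7% with E1126G. Those rises were 2.33 (implied SE 0.67, adjusted p = 0.0020) and 3.12 (implied SE 0.69, adjusted p = 2.4e-05) in log2 in the authors' deposited tables, and each is about 2 percentage points of inclusion. By RNA-seq with E1126G the 177 nt form went from 97.7% to 99.0% and the 30 nt form from 98.2% to 99.1%, neither past the threshold (adjusted p = 0.65 and 0.74). These forms are not listed for R749H in RNA-seq or for H1106Y in RASL-seq.

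The JNK genes MAPK8 and MAPK9 were measured by RNA-seq only. A 69 nt exon of MAPK8 (JNK1) stood at 41.5% in WT, 19.7% with R749H and 31.0% with E1126G, with adjusted p of 0.26 and 0.81. A 241 nt exon of MAPK9 (JNK2) stood at 9.80% in WT, 12.8% with R749H and 20.1% with E1126G, with adjusted p of 0.62 and 0.11. A 93 nt exon of MAPK9 stood at 19.1% in WT, 10.8% with R749H and 29.5% with E1126G, with adjusted p of 0.45 and 0.63. These exons were named after their values were seen, as members of the JNK pair with wide shifts that did not pass the threshold.

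**Figure D3:**
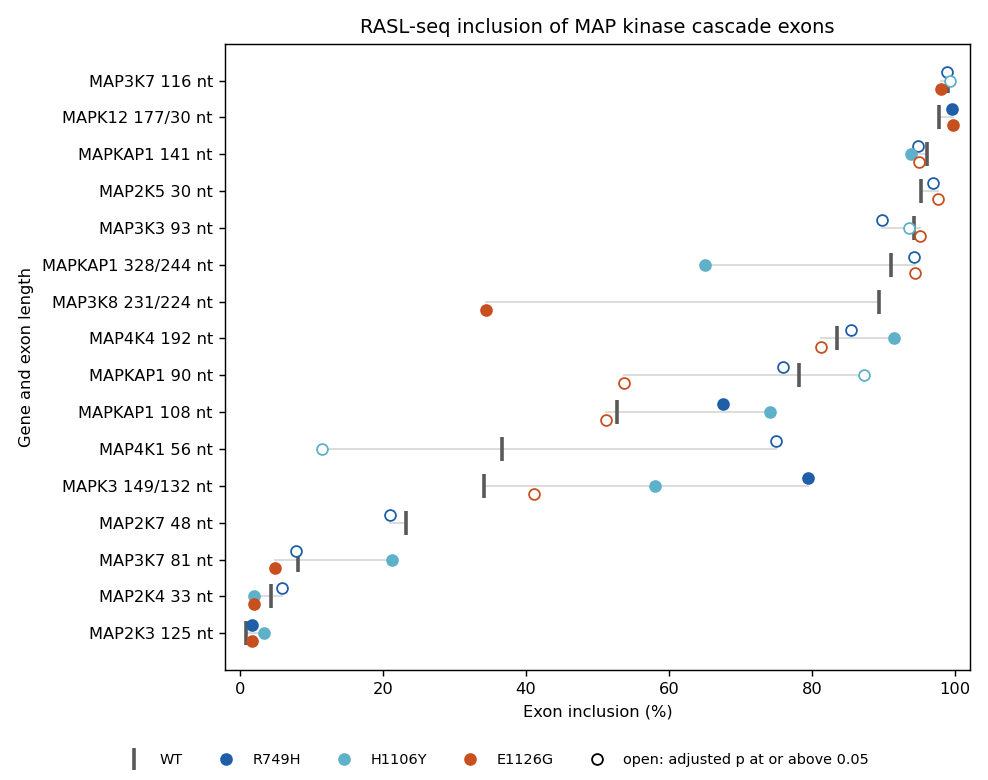
RASL-seq inclusion in percent of each distinct member measurement (rows, gene and exon length in nt) in WT (vertical bar) and in each mutant (points, filled where the adjusted p against WT is under 0.05). MAPK3 runs from 34.2% in WT to 79.5% with R749H, and MAP3K8 from 89.3% in WT to 34.5% with E1126G.

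Among the genes that share the prefix and are not numbered kinases of the cascade, changes were found in MAPKAP1, all of them by RASL-seq. The other 5 genes are not in the RASL-seq tables, and none of the 6 changed in RNA-seq. Its product is a subunit of mTORC2, the complex that phosphorylates AKT, and its 108 nt exon (chromosome 9, 128268589 to 128268696) has the length of 36 codons. By RASL-seq that exon was included at 52.7% in WT, 67.5% with R749H, 74.2% with H1106Y and 51.1% with E1126G. It rose with the slow forms, by log2 0.90 (implied SE 0.17, adjusted p = 1.3e-06) and 1.37 (implied SE 0.14, adjusted p = 1.3e-22) in the authors' deposited tables, and the fast form did not pass the threshold (adjusted p = 0.49). RNA-seq with the same flanking exons gave 65.0% in WT, 67.2% with R749H and 63.2% with E1126G, neither past the threshold (adjusted p = 0.85 and 0.93). With a more distant flanking exon on 1 side, RNA-seq gave 94.8% in WT, 95.2% with R749H and 95.5% with E1126G (adjusted p = 0.94 and 0.95).

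A second MAPKAP1 exon moved the other way and with 1 mutant. The exon of 328 nt or 244 nt (chromosome 9, 128434595 or 128434679 to 128434922) was at 91.0% in WT by RASL-seq, 94.3% with R749H, 65.0% with H1106Y and 94.4% with E1126G. The fall with H1106Y was −2.45 in log2 in the authors' deposited table (implied SE 0.32), with an adjusted p of 4.5e-14 for the longer form and 4.4e-14 for the shorter. R749H and E1126G did not pass the threshold (adjusted p = 0.20 and 0.14). A 141 nt exon (chromosome 9, 128246722 to 128246862) fell from 96.1% to 93.8% with H1106Y (adjusted p = 0.011), beside 94.8% with R749H and 94.9% with E1126G (adjusted p = 0.21 for each). MAPKAPK5, MAPKAPK5-AS1, MAPK8IP3, MAPK1IP1L and MAP4K3-DT had no changing event. The sources used here do not state that counting used strand. The events of MAPKAPK5 and its antisense gene do not overlap (chromosome 12, 112304035 to 112321385 and 112277807 to 112279131).

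The 47 events that never passed the threshold covered a wide range. In RNA-seq, 39 of them were measured with R749H, where the authors' deposited table had log2 changes from −3.32 to 2.75. With E1126G 44 were measured, and there the authors' deposited table ran from −1.45 to 1.92. The −3.32 belonged to a 119 nt exon of MAP4K3-DT, at 25.0% in WT and 3.23% with R749H (adjusted p = 0.084). The 2.75 belonged to a 178 nt exon of MAP3K3, at 96.3% in WT and 99.4% with R749H (adjusted p = 0.16). RASL-seq measured 4, 3 and 3 of them with R749H, H1106Y and E1126G. There the authors' deposited tables ran from −0.90 to 2.37, −2.15 to 0.94 and −1.625 to 1.04 in log2. The implied errors bear on what could pass. Over these events their median in RNA-seq was 0.82 with R749H and 0.89 with E1126G, beside 0.73 and 0.84 over all members. In RASL-seq it was 0.98, 0.67 and 0.91 with R749H, H1106Y and E1126G, beside 0.51, 0.41 and 0.50 over all members.

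A change past the threshold with 1 mutant and not with another does not show that the mutants differ, so the difference of their log2 changes was tested directly. The test was an approximate two-sided z test from the implied errors, adjusted over all events in both tables. The WT value cancels in such a difference, but its error is still counted in both implied errors. The SE of a difference is therefore too large if the implied errors hold, and the counts may miss differences. In RNA-seq, 0 of 50 member events differed between R749H and E1126G, against 1.74% of all 13284 events, and 4 members had an unadjusted p under 0.05. The smallest adjusted p, 0.088, belonged to the 85 nt exon of MAPK12, where R749H was higher by 1.93 in log2 (SE 0.63). MAP3K4 and MAP2K1, which changed with R749H, differed from E1126G by 1.13 (SE 0.80, adjusted p = 0.72) and −1.54 (SE 0.88, adjusted p = 0.56) in log2. MAP2K7 differed by 0.69 (SE 0.90, adjusted p = 0.92).

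In RASL-seq, 5 of 16 member events differed between R749H and E1126G, or 4 distinct measurements, against 33.8% of all events in either direction. How often R749H was the higher over all events was not counted. The median log2 change over each whole table was 0.05 with R749H and −0.37 with E1126G. R749H was the higher in each of the 5 member events. These were MAPK3 by 2.47 in log2 (SE 0.92, adjusted p = 0.026), MAP2K4 by 1.62 (SE 0.56, adjusted p = 0.015), the 81 nt exon of MAP3K7 by 0.73 (SE 0.28, adjusted p = 0.029) and the 108 nt exon of MAPKAP1 by 0.99 (SE 0.20, adjusted p = 7.9e-06). The MAP3K7 difference had an adjusted p of 0.38 when implied errors were kept from falling below the median error at similar WT inclusion. MAP2K3, which rose with both mutants, differed by 0.05 (SE 0.27, adjusted p = 0.92).

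The 2 slow polymerases also differed from each other. Between H1106Y and R749H, 7 of 14 member events differed, or 6 distinct measurements, against 41.5% of all events in either direction. H1106Y was higher in 3. These were the 81 nt exon of MAP3K7 by 1.67 in log2 (SE 0.28, adjusted p = 2.7e-08), MAP2K3 by 0.98 (SE 0.28, adjusted p = 0.0022) and MAP4K4 by 0.86 (SE 0.22, adjusted p = 5.4e-04). It was lower in 4. The difference, H1106Y minus R749H, was −3.15 for the MAPKAP1 exon of 328 nt or 244 nt (SE 0.55, adjusted p = 8.2e-08 and 8.1e-08), −4.52 for the 56 nt exon of MAP4K1 (SE 1.64, adjusted p = 0.017) and −1.64 for MAP2K4 (SE 0.61, adjusted p = 0.022). With the lower limit on the implied errors, MAP2K3 and MAP4K4 had adjusted p of 0.14 and 0.085. MAPK3, which rose with both slow forms, differed by −1.49 (SE 0.93, adjusted p = 0.19).

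Between H1106Y and E1126G, 6 of 13 member events differed, or 5 distinct measurements, against 49.3% of all events in either direction. H1106Y was higher in the 81 nt exon of MAP3K7 by 2.39 in log2 (SE 0.27, adjusted p = 3.5e-18), the 108 nt exon of MAPKAP1 by 1.46 (SE 0.17, adjusted p = 1.2e-16), MAP4K4 by 1.30 (SE 0.19, adjusted p = 8.6e-11) and MAP2K3 by 1.03 (SE 0.24, adjusted p = 7.2e-05). It was lower in the MAPKAP1 exon of 328 nt or 244 nt, with a difference of −3.17 (SE 0.51, adjusted p = 4.2e-09). With the lower limit on the implied errors MAP2K3 had an adjusted p of 0.084. MAP2K4, which fell with both, differed by −0.01 (SE 0.65, adjusted p = 0.99), and MAPK3 by 0.98 (SE 0.86, adjusted p = 0.36).

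**Figure D4:**
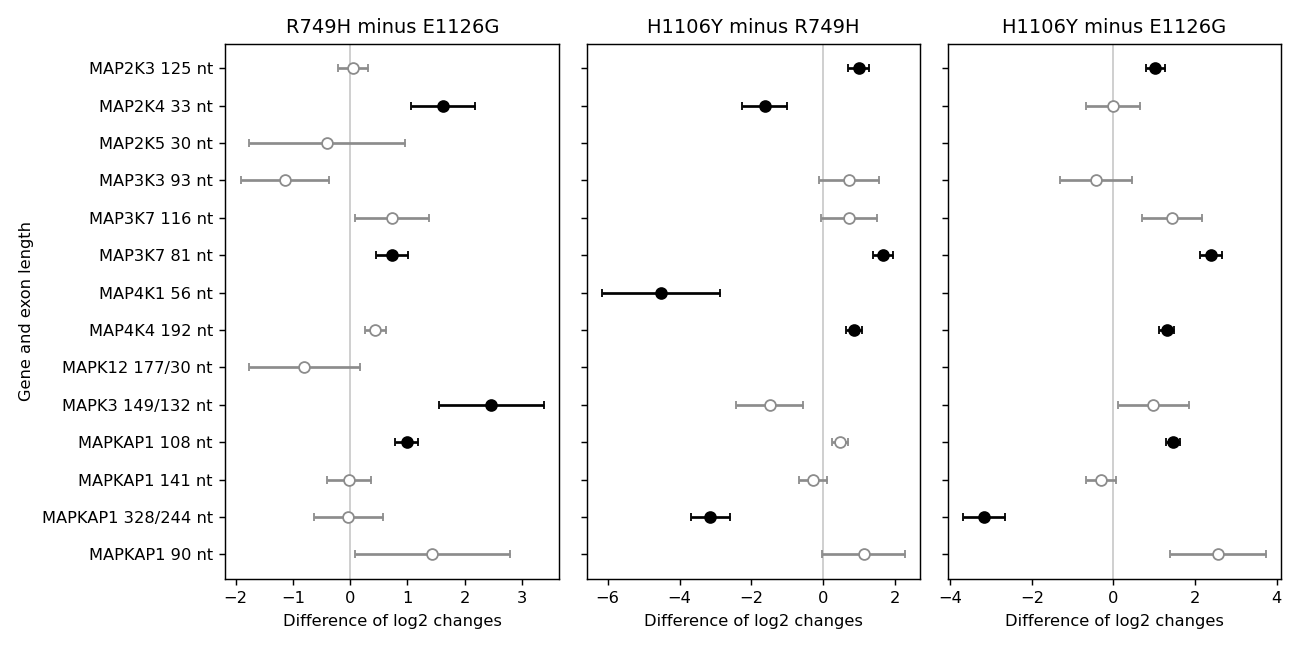
Difference between 2 mutants in the log2 change against WT by RASL-seq, for each distinct member measurement (points, with bars of 1 standard error implied by the deposited p-values, filled where the adjusted p is under 0.05). Filled points lie right of 0 in the R749H minus E1126G panel and on both sides in the H1106Y panels, where the MAPKAP1 exon of 328 nt or 244 nt lies at −3.15 and −3.17.

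The 2 assays could be compared for 12 member events with R749H and 16 with E1126G. No member's change differed between RNA-seq and RASL-seq by the same approximate test, against 4.67% of all 1648 shared events with R749H and 1.43% of all 1674 with E1126G. The sign of the change was the same in both assays for 10 of 12 members with R749H, against 74.0% of all shared events, and for 15 of 16 with E1126G, against 73.7%. With rows of identical RASL-seq values taken as 1 measurement, both assays had the same sign in 8 of 10 measurements with R749H and 11 of 12 with E1126G, and the remaining E1126G measurement had forms of either sign in RNA-seq. Over the 18 events measured by both assays the median absolute gap in WT inclusion was 11.4 points, and 6 gaps were over 20 points. The 93 nt exon of MAP3K3 was at 21.3% by RNA-seq and 94.2% by RASL-seq, and the 56 nt exon of MAP4K1 at 89.3% and 36.7%. For R749H the median gap over its 12 member events was 11.4 points, beside 11.7 over all shared events.

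**Figure D5:**
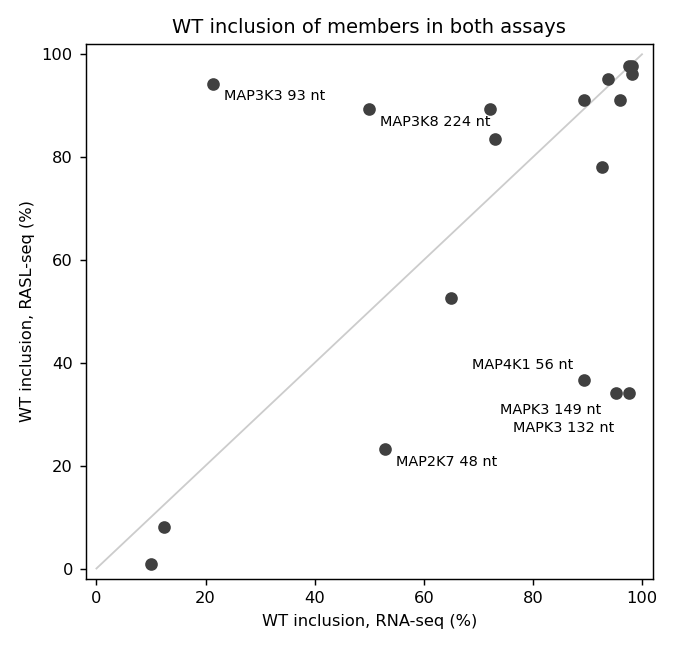
WT inclusion in percent by RASL-seq against WT inclusion by RNA-seq for the 18 member events in both assays, with the line of equal levels. The 6 events with gaps over 20 points are named, among them MAP3K3 above the line and both forms of the MAPK3 exon below it.

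Retained introns are a readout that the choice of members did not use. The intron tables name no gene, and introns were assigned to a member gene where they lay between the first and the last coordinate of its events on the same strand. This gave 5 introns, in MAP3K6, MAPK3 and MAPK12, of which 1, a 73 nt intron of MAPK12, lay within a single event and 4 lay between events. With R749H 0 of 5 changed, against 18.9% of all 2605 introns, none had an unadjusted p under 0.05, and the smallest adjusted p was 0.19. With E1126G 1 of 5 changed, against 9.18% of all 2615 introns. It was a 68 nt intron of MAPK12, between its events (chromosome 22, 50689335 to 50689402), retained at 73.0% in WT, 92.0% with E1126G and 86.8% with R749H. Its rise with E1126G was 2.10 in log2 in the authors' deposited table (implied SE 0.64, adjusted p = 0.017), and R749H did not pass the threshold (log2 1.28 in the authors' deposited table, implied SE 0.67, adjusted p = 0.19). A 259 nt intron of MAP3K6 was at 46.6% in WT, 26.5% with R749H and 31.0% with E1126G (adjusted p = 0.26 and 0.42), and a 103 nt intron of MAPK3 stayed under 1% in all 3 genotypes.

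In the RNA-seq table of R749H their median length was 119 nt, from 18 to 328 nt, beside 108 nt over all events, and 52.8% had a length that is a multiple of 3, beside 43.5% of all events. Their median WT inclusion was 85.2%, beside 90.5%. In the RASL-seq table of R749H the median length was 112 nt beside 99 nt, and 66.7% were a multiple of 3 beside 56.1%. Over all tables, 33 of 66 member events and 12 of the 19 that changed had such a length, with forms of 1 measurement counted apart. RASL-seq gave 15 of the 19. Within RASL-seq the share was 66.7% of changed and 66.7% of unchanged members with R749H. It was 60% and 50% with H1106Y, and 62.5% and 70% with E1126G. These contrasts were not tested, and the share among changed events of the whole tables was not counted. The changing exons of MAP2K1, MAP2K4, MAP2K7, MAP3K4, MAP4K4 and the 81 nt exon of MAP3K7 are among these, while the 125 nt exon of MAP2K3, the 85 nt exon of MAPK12 and the 116 nt exon of MAP3K7 are not.

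The wider pathway was read from 6 lists of 133 genes that are not members: RAS and RAF input, other upstream kinases and stress adaptors, scaffolds, phosphatases, kinase substrates and transcription factor targets. By RNA-seq, 17 of 91 list events changed with R749H, 8 higher and 9 lower, or 18.7% beside the 15.1% of all events. With E1126G 7 of 108 changed, 3 higher and 4 lower, or 6.48%, the same share as over all events. By RASL-seq 14 of 30 changed with R749H, 8 higher and 6 lower, 18 of 28 with H1106Y, 9 each way, and 16 of 32 with E1126G, 4 higher and 12 lower. Those RASL-seq shares were 46.7%, 64.3% and 50%, beside 44.1%, 61.9% and 47.5% of all events.

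In the RAS and RAF list, the 82 nt exon of HRAS, a RAS GTPase, rose by RNA-seq from 44.4% to 72.5% with R749H (adjusted p = 8.5e-06) and 61.4% with E1126G (adjusted p = 0.012). By RASL-seq it rose from 11.7% to 21.5% with R749H (adjusted p = 0.047). The 42 nt exon of KSR1, a scaffold of RAF and MAP2K1, fell from 59.1% to 21.1% with R749H by RNA-seq (adjusted p = 0.0079). A 90 nt exon of GAB1, a docking protein of growth factor receptors, fell from 53.2% to 20.9% with H1106Y by RASL-seq (adjusted p = 9.2e-23).

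The list of other upstream kinases and stress adaptors had 4 of 21 events changed with R749H and 2 of 24 with E1126G by RNA-seq, all lower. Lower calls were 8.04% and 4.27% of all events in those tables. By RASL-seq 4 of its 6 events fell with R749H, 4 of 7 with H1106Y and 5 of 7 with E1126G, beside 20.1%, 38.2% and 33.6% of all events, and 1 event rose in each. A 24 nt exon of TNIK, a kinase close to MAP4K4, fell by RASL-seq from 90.9% to 47.7% with R749H (adjusted p = 4.9e-32), 56.3% with H1106Y (adjusted p = 8.7e-17) and 71.1% with E1126G (adjusted p = 4.4e-18). A 57 nt exon of RAC1, a GTPase above the JNK branch, fell from 34.1% to 2.06% with E1126G by RNA-seq (adjusted p = 7.0e-27).

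Among the scaffolds, the 39 nt exon of SPAG9, which binds JNK and its activators, fell in all 5 comparisons. By RNA-seq it went from 32.1% in WT to 2.82% with R749H (adjusted p = 9.9e-09) and 2.70% with E1126G (adjusted p = 1.8e-08). By RASL-seq it went from 14.0% to 5.53% with R749H (adjusted p = 7.3e-04), 3.95% with H1106Y (adjusted p = 9.9e-06) and 3.23% with E1126G (adjusted p = 1.3e-10). Of the transcription factor targets, 3 of 19 events rose and none fell with R749H by RNA-seq, beside 7.07% and 8.04% of all events. With E1126G 2 of 24, both in MAX, rose and none fell, beside 2.20% and 4.27%. By RASL-seq 4 of 13 rose and none fell with R749H, beside 24.0% and 20.1% of all events. With H1106Y 5 of 11 rose and 1 fell, beside 23.7% and 38.2%. With E1126G 3 of 12 rose and 2 fell, beside 13.9% and 33.6%. Events of 1 gene were counted apart in this list. The changed events came from 2 genes with R749H and 1 with E1126G by RNA-seq. By RASL-seq they came from 2, 3 and 3 genes with R749H, H1106Y and E1126G. A 54 nt exon of ETV1, an ETS family transcription factor, fell from 99.1% to 95.6% with E1126G (adjusted p = 2.6e-05). A 101 nt exon of MAX, the partner of MYC, rose from 4.09% to 48.6% with R749H by RNA-seq (adjusted p = 9.0e-16), and by RASL-seq from 2.93% to 21.9% with E1126G (adjusted p = 2.6e-67). With R749H by RNA-seq, 1 of 9 phosphatase events changed, a rise in STYXL1, and 1 of 5 kinase substrate events, a fall in MKNK1. Of all events 15.1% changed there. Neither list had a change with E1126G by RNA-seq. By RASL-seq each list had 1 event. The event of PPM1A, a phosphatase, fell with H1106Y and E1126G (adjusted p = 0.045 and 3.2e-05) from 1.03% in WT. Another exon of MKNK1 rose from 2.04% to 7.76% with H1106Y (adjusted p = 0.0030).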

How the data were processed

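The series lists 40 samples. The exon and intron tables analysed rest on its 6 RNA-seq and 12 RASL-seq libraries, and in each table the authors had set a mutant against WT. The GRO-seq libraries are not analysed here. The RNA-seq libraries are biological replicates, per the labels' protocols, and separate cultures are not otherwise stated, so p-values may measure technical spread. Each deposited row gives the natural log of the WT inclusion ratio, the log2 change in the mutant and an unadjusted p-value deposited by the authors. The sources used here do not say how the authors tested. TopHat 1.4.1, Bowtie 0.12.7 and edgeR 3.7.17 are named in the submitters' processing notes, without a role. Tables named by a code were taken as R749H because those samples' descriptions list them. Coordinates are GRCh37 (hg19), per the submitters' processing notes, printed 1-based.

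The natural log base was checked on the deposited values: between 62.9% and 94.4% of the WT ratios in a table then came out as fractions of integers (relative tolerance 1e-09, denominators no larger than 300), and with base 2 no table exceeded 0.396%. Inclusion was computed as 100 times the ratio over 1 plus the ratio, uncorrected for the number of junctions or for probe efficiency. P-values were adjusted by Benjamini-Hochberg over each whole table, with Python 3.11.15 and SciPy 1.17.1. The implied SE is the size of the log2 change divided by the normal quantile of the deposited p-value, and mutants were compared by an approximate z from it. The calling code was run on data simulated from the same implied errors, which checks the code and not those errors or the authors' test. Symbols were found for 6156 of 6332 identifiers in the R749H RNA-seq table and 6214 of 6396 in that of E1126G, and for 1648 of 1680, 1536 of 1566 and 1693 of 1725 in the RASL-seq tables of R749H, H1106Y and E1126G. All events past the threshold of 0.05 were named, with every value for those that passed in 2 or more comparisons, changed by at least 20 points or moved most in their tier. Pathway genes were named among the 2 largest changes per list and comparison. The members and gene lists were chosen with earlier results of these data known.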

Additional observations from a re-analysis of the deposited data

How the results depend on the processing

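The alternatives moved thresholds, adjustments, filters and counting, and none re-estimated a log2 change, so they do not test directions. With a threshold of 0.1 in place of 0.05, 5 rather than 3 RNA-seq events changed with R749H, and 1 rather than 0 differed between R749H and E1126G. With a threshold of 0.01, 6 rather than 10 RASL-seq events changed with H1106Y, 1 rather than 5 differed between R749H and E1126G in RASL-seq, and 0 rather than 1 intron changed with E1126G. Benjamini-Yekutieli adjustment, which allows any dependence between events, left 6 with H1106Y, and so did counting only cascade kinases. It took the adjusted p past the threshold for MAP2K1 with R749H (0.089), MAPK3 (0.32), MAP2K4 (0.23) and the 141 nt exon of MAPKAP1 (0.094) with H1106Y, and MAP2K4 (0.11) and the 116 nt exon of MAP3K7 (0.20) with E1126G. Asking also for a change of at least 10 points left 3, 6 and 2 RASL-seq events with R749H, H1106Y and E1126G. Keeping only WT inclusion of 5% to 95% left 3 with R749H and 3 with E1126G. Counting rows of identical values once was chosen after seeing the data.

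No paired analysis was possible because the tables hold no value per library, and leaving out replicates could not be run for the same reason. Depth is unknown, so no interval of a level can be given. The approximate test between mutants rests on the deposited p-values.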
